A study of Mus musculus with 16 samples.

Results

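The genes described here are 10 genes of toll-like receptor signalling and its NF-kB feedback, taken by their symbols from the probes of the deposited expression table: Tlr2, Tlr4, Tlr7, Tlr9, Myd88, Irak3, Nfkbia, Nfkbiz, Tnfaip3 and Tnf. They are 10 of the 37017 gene names on the array and have 19 of its 56605 probes, and all 10 are among the 30588 genes that were tested, the rule being a signal well above background in 5 or more of the 16 arrays. The samples are whole tumours of an orthotopic pancreatic cancer model, in which the tumour grows in the pancreas itself, from female C57BL/6 mice. In 5 samples the animals had received ADH-503 for 10 days, in 5 for 48 h, and in 6 they had received vehicle. ADH-503 is a small-molecule agonist of CD11b, the integrin alpha M chain of neutrophils, monocytes and macrophages. Titles of the treated samples call the compound LA1. The labels give no genetic change, no age and no time for the vehicle group, and they do not name the tumour line. Within a group each title carries a different ID number. What this number names is not said, so the labels do not tell if the samples of a group are separate animals. The p-values therefore measure only the spread between these samples, which may be technical. Each sample is called a tumour below for short, though it may not be a separate one. Total RNA of the tumour was labelled with Cy5 and hybridised to 1-colour Agilent arrays.

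Toll-like receptors recognise microbial molecules and, in damaged tissue, some molecules of the body. TLR2 and TLR4 lie on the cell surface, and TLR7 and TLR9 sense RNA and DNA inside endosomes. All of them can signal through the adaptor MYD88 to the IRAK kinases and to the transcription factor NF-kB. NF-kB then raises genes that end the response, among them Nfkbia, which encodes the inhibitor IκBα, and Tnfaip3, which encodes the ubiquitin-editing enzyme A20. Activation of CD11b is known to restrain toll-like receptor signalling in myeloid cells, which is the question these genes bear on in a tumour treated with a CD11b agonist.

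The promoters of Tlr2, Nfkbia and Tnfaip3 are shown because these genes varied together from tumour to tumour and because these 3 genes alone, of the 7 members with a promoter in the RefSeq table used (GRCm38.p6), hold the NF-kB consensus there. The consensus searched was a run of 3 G, 1 purine, 2 bases of any kind, 2 pyrimidines and 2 C, on both strands, within 250 bases before and 50 bases after the start. Each sequence runs 5′ to 3′ on the minus strand from 250 bases before to 10 bases after the start, with the matches in capitals.
Tlr2 (chr3:83841599-83841858): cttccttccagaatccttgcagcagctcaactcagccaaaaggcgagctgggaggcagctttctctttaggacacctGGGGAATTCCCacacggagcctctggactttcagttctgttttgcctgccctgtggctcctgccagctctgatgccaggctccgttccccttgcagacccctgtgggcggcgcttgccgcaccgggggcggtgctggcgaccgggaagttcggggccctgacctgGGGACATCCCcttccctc
Nfkbia (chr12:55492638-55492897): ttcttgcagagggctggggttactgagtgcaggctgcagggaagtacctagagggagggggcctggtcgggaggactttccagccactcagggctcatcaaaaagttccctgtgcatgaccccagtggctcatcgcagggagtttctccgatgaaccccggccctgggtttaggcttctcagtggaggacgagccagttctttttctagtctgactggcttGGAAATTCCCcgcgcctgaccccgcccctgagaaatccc
Tnfaip3 (chr10:19015401-19015660): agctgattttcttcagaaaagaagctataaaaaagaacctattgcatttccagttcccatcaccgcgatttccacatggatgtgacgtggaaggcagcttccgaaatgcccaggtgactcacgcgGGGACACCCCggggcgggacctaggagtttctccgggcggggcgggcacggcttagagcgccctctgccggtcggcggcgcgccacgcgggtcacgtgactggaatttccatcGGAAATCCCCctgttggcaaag

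In Tlr2 the matches begin 173 and 8 bases before the start, the first one being a pair of overlapping matches. In Nfkbia a match begins 29 bases before the start, and in Tnfaip3 matches begin 125 and 12 bases before it. A match occurs in 9.55% of the 27025 genes that have a RefSeq promoter. Such a match is a description of the letters and not a site of binding. The table lists another promoter of Tnfaip3, which holds no match, and Tlr9, Myd88, Irak3 and Tnf have promoters in it without one. Tlr4, Tlr7 and Nfkbiz have no entry there.

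Probe positions are those of the deposited files on mouse genome build mm9. The probes of Nfkbia and Irak3 are printed because each covers more of the genome than its own length, so that each reads the spliced transcript across a junction between exons. Both are on the minus strand.
Nfkbia probe (chr12:56590945-56591440): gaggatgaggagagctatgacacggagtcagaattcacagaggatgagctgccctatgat
Irak3 probe (chr10:119615854-119619639): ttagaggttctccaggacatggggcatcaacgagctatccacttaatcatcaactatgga

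The probes that represent the other 8 genes lie at chr3:83640344-83640403 for Tlr2, chr4:66500344-66500403 for Tlr4, chrX:163742863-163742922 for Tlr7, chr9:106128979-106129038 for Tlr9, chr9:119245322-119245381 for Myd88, chr16:55817859-55817918 for Nfkbiz, chr10:18720776-18720835 for Tnfaip3 and chr17:35336795-35336854 for Tnf. Tlr4 and Tlr9 are on the plus strand and the other 6 on the minus strand. All 19 probes were well above background on all 16 arrays, and none had an outlier spot, so no value below is a bound.

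Each array holds 62976 spots, of which 3671 are controls, and between 74.9% and 81.2% of its probes were well above background. The correlation between any pair of arrays was 0.942 to 0.976 across the genes tested, with a mean of 0.961 within groups and 0.962 between groups. The arrays lie on 2 slides, which are unevenly filled: slide 1 holds 3 of the 10 day, 4 of the 48 h and 1 of the vehicle arrays, and slide 2 holds 2 of the 10 day, 1 of the 48 h and 5 of the vehicle arrays. Vehicle replicate 2 and 48 h replicate 5 share an ID number in their titles, although the description of the former differs, and results were also computed without both. Markers of the labelled tissue were present: 8 of 8 ductal and tumour epithelium markers, 9 of 9 acinar markers and 11 of 11 macrophage and monocyte markers were tested.

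At neither time did any of the 10 genes pass the adjusted threshold against vehicle, which does not show that they were unchanged. After 10 days of ADH-503, 0 of 10 were at an adjusted p under 0.05 in limma, where 0% of all genes tested passed. The Benjamini-Hochberg adjustment was over all genes. At an unadjusted p under 0.05 the count was also 0 of 10 (3.53% of all genes), and it was 1 of 10 with an intensity trend in place of the robust fit (3.29% of all genes in that fit). No member had values that lay wholly above or below those of vehicle (0.213% of all genes). After 48 h the counts against vehicle were again 0 of 10 after adjustment (0% of all genes), 0 of 10 before it (2.56%) and 0 of 10 without overlap (0.141%). Between 10 days and 48 h they were 0 of 10 (0%), 0 of 10 (3.47%) and 0 of 10 (0.503%). The adjusted p was 1 for each member in each comparison. Of the 10 genes 7 were lower at 10 days than in vehicle (52% of all genes were lower), with a median log2 difference of -0.06 against -0.01 over all genes. At 48 h 6 of 10 were lower (53.2% of all genes), with a median of -0.01 for the members and -0.01 for all genes. Against 48 h, 4 of 10 were lower at 10 days (48.9% of all genes), with a median of 0.06 against 0.01 over all genes. Both treated groups are compared with the same vehicle arrays.

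**Figure D1:**
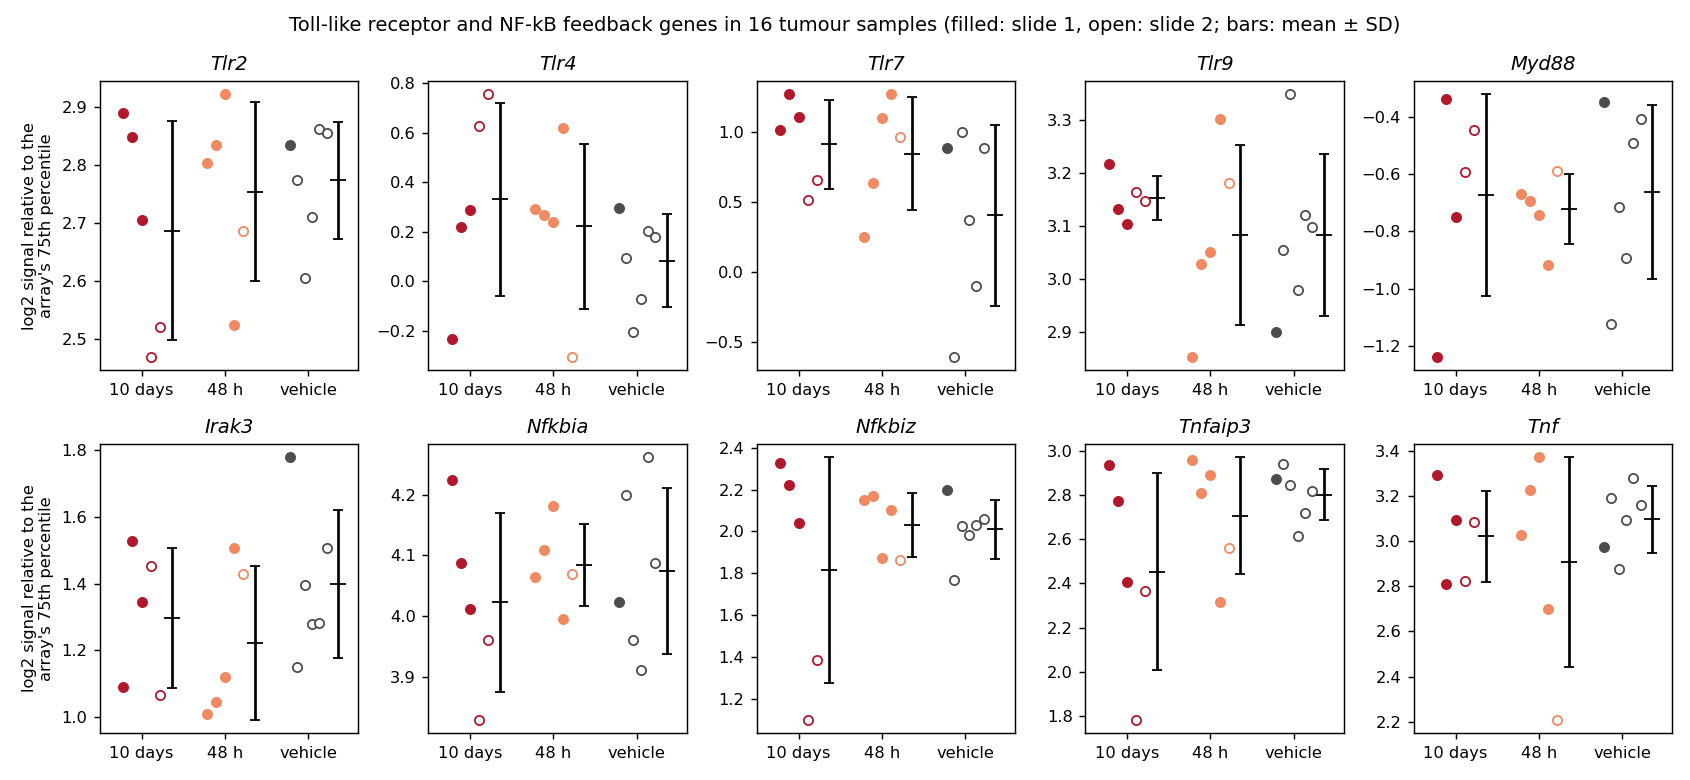
Level of each of the 10 genes on each of the 16 arrays, as log2 signal relative to the array's 75th percentile, in the 10 day, 48 h and vehicle groups, with the mean ± SD as a bar beside the points and filled points for slide 1. The 3 groups overlap in every panel, and the 10 day points of Nfkbiz and Tnfaip3 spread downward, to 1.099 and 1.78.

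All levels below are log2 signals relative to the array's 75th percentile, and a difference of 1 is a doubling of the signal. Levels of different probes are not comparable, so the level of each gene is compared only with itself. The SD is also set against that of all genes tested, whatever their signal. The brightness of the probes was not taken into account there. In whole tumours fewer cells of a type and less RNA per cell cannot be told apart.

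Tlr2, the surface receptor for bacterial lipoproteins, measured 2.89, 2.85, 2.71, 2.47 and 2.52 at 10 days and 2.80, 2.84, 2.92, 2.53 and 2.69 at 48 h. In vehicle its lowest, median and highest levels were 2.61, 2.80 and 2.86. The last 2 of the 10 day tumours and 1 tumour of 48 h lay below all vehicle tumours, and the others lay among or slightly above them. The difference from vehicle was -0.09 ± 0.11 (SE) at 10 days, with a 95% interval of -0.31 to 0.14 and -0.02 ± 0.11 at 48 h. Tlr2 was a steady gene, since 5.5% of all genes tested had a smaller SD over the 16 arrays (0.14).

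Tlr4, the receptor for bacterial endotoxin, measured -0.23, 0.22, 0.29, 0.63 and 0.76 at 10 days and 0.29, 0.27, 0.24, 0.62 and -0.31 at 48 h, against a lowest, median and highest level of -0.20, 0.14 and 0.30 in vehicle. The last 2 of the 10 day tumours were the highest of all 16, while the first was the lowest but 1. The difference from vehicle was 0.25 ± 0.18 (SE) at 10 days, with an interval of -0.14 to 0.64, and 0.14 ± 0.18 at 48 h. Within slide 1 the 10 day difference was -0.21 and within slide 2 it was 0.65. Omitting single arrays, it ran from 0.14 without 10 days replicate 5, the highest tumour, to 0.39 without 10 days replicate 1, the lowest of that group.

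Tlr7, the endosomal receptor for single-stranded RNA, had the largest 10 day difference among the members. Its levels were 1.01, 1.27, 1.11, 0.51 and 0.66 at 10 days and 0.25, 0.64, 1.1, 1.27 and 0.97 at 48 h, against a lowest, median and highest level of -0.61, 0.63 and 1.002 in vehicle. Vehicle tumours spanned the widest range, from below any treated tumour to the upper part of the treated range, so the groups overlapped. All 5 of the 10 day tumours and 4 of 5 at 48 h lay above the vehicle mean of 0.41 ± 0.65 (SD, n = 6). The difference was 0.51 ± 0.28 (SE) at 10 days, a fold of 1.42 with an interval of 0.93 to 2.16 (adjusted p = 1 in limma), and 0.44 ± 0.28 at 48 h, a fold of 1.36 with an interval of 0.89 to 2.07. With single arrays omitted in turn, they ran from 0.30 to 0.63 at 10 days and from 0.24 to 0.59 at 48 h, with the lowest value each time without vehicle replicate 2, the lowest tumour. With the slide as a block they were 0.35 at 10 days and 0.21 at 48 h. Within slide 1 the 48 h difference was -0.07, and within slide 2 it was 0.66. The 16-array SD of Tlr7, 0.52, was larger than that of 75% of all genes.

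Tlr9, the endosomal receptor for unmethylated CpG DNA, measured 3.22, 3.13, 3.10, 3.16 and 3.15 at 10 days and 2.85, 3.03, 3.05, 3.30 and 3.18 at 48 h, against a lowest, median and highest level of 2.90, 3.07 and 3.35 in vehicle. The 10 day tumours were close together, with an SD of 0.04 where the median gene had 0.32, and all lay inside the vehicle range. The difference was 0.07 ± 0.10 (SE) at 10 days (-0.15 to 0.28) and 0.00 ± 0.10 at 48 h (-0.21 to 0.21).

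Myd88, the shared adaptor, measured -1.24, -0.34, -0.75, -0.59 and -0.45 at 10 days and -0.67, -0.69, -0.74, -0.92 and -0.59 at 48 h, against a lowest, median and highest level of -1.13, -0.60 and -0.35 in vehicle. The groups lay over one another, and both the lowest and the highest level of all 16 tumours were at 10 days. The difference was -0.01 ± 0.17 (SE) at 10 days (-0.37 to 0.35) and -0.06 ± 0.17 at 48 h (-0.42 to 0.30).

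Irak3 encodes IRAK-M, a kinase-like protein of monocytes and macrophages that holds back signalling below MYD88. It measured 1.09, 1.53, 1.35, 1.45 and 1.07 at 10 days and 1.01, 1.04, 1.12, 1.51 and 1.43 at 48 h, against a lowest, median and highest level of 1.15, 1.34 and 1.78 in vehicle. Both treated groups reached below the vehicle range, with 2 tumours at 10 days and 3 at 48 h. The difference was -0.10 ± 0.14 (SE) at 10 days (-0.40 to 0.20) and -0.18 ± 0.14 at 48 h (-0.48 to 0.12).

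Nfkbia measured 4.22, 4.09, 4.01, 3.83 and 3.96 at 10 days and 4.06, 4.11, 4.18, 3.996 and 4.07 at 48 h, against a lowest, median and highest level of 3.91, 4.05 and 4.26 in vehicle. It was among the steadiest genes of the array: 1.8% of all genes had a smaller SD over the 16 tumours (0.12). A single tumour of 10 days lay just under the vehicle range. The difference was -0.05 ± 0.10 (SE) at 10 days and 0.01 ± 0.10 at 48 h, with intervals of -0.26 to 0.15 and -0.19 to 0.21, which are folds of 0.84 to 1.11 and of 0.88 to 1.16.

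Nfkbiz encodes IκBζ, a nuclear IκB protein that is needed for the induction of a set of late NF-kB genes. It measured 2.33, 2.22, 2.04, 1.099 and 1.39 at 10 days and 2.15, 2.17, 1.87, 2.11 and 1.86 at 48 h, against a lowest, median and highest level of 1.77, 2.03 and 2.20 in vehicle. The first 3 of the 10 day tumours lay at or above the middle of the vehicle range and the last 2, which are those of slide 2, lay far below it and were the lowest of all 16. The 10 day SD was 0.54, against 0.14 in vehicle. The difference was -0.20 ± 0.19 (SE) at 10 days (-0.61 to 0.22) and 0.02 ± 0.19 at 48 h (-0.39 to 0.43). At 10 days it was -0.00 within slide 1, -0.73 within slide 2, and -0.43 with the slide as a block. With single arrays omitted in turn, it ran from -0.32 without 10 days replicate 1 to -0.02 without 10 days replicate 4.

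Tnfaip3 had the largest negative 10 day difference of the 10 genes. It measured 2.94, 2.77, 2.40, 1.78 and 2.37 at 10 days and 2.96, 2.81, 2.89, 2.32 and 2.56 at 48 h, against a lowest, median and highest level of 2.62, 2.83 and 2.94 in vehicle. At 10 days 3 of 5 tumours and at 48 h 2 of 5 lay below all vehicle tumours, while the rest lay in or near the vehicle range. The 10 day mean was 2.45 ± 0.45 and the 48 h mean 2.71 ± 0.27 (SD, n = 5 each), against 2.80 ± 0.12 in vehicle (SD, n = 6). The 10 day difference was -0.35 ± 0.18 (SE), a fold of 0.79 with an interval of 0.60 to 1.02 (adjusted p = 1 in limma), and the 48 h difference was -0.10 ± 0.18. With the slide as a block the 10 day difference was -0.50 ± 0.17 (adjusted p = 1 in limma), within slide 1 it was -0.17 and within slide 2 -0.71. With single arrays omitted in turn, it ran from -0.47 without 10 days replicate 1, the highest tumour of the group, to -0.18 without 10 days replicate 4, the lowest.

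Tnf, the inflammatory cytokine that NF-kB induces and that itself activates NF-kB, measured 3.29, 2.81, 3.09, 2.82 and 3.08 at 10 days and 3.03, 3.23, 3.37, 2.70 and 2.21 at 48 h, against a lowest, median and highest level of 2.88, 3.13 and 3.28 in vehicle. Treated tumours reached above and below the vehicle range at both times. The difference was -0.07 ± 0.18 (SE) at 10 days (-0.45 to 0.30) and -0.19 ± 0.18 at 48 h (-0.57 to 0.19). With single arrays omitted in turn, the 48 h difference ran from -0.31 without 48 h replicate 3 to -0.02 without 48 h replicate 5, the lowest tumour.

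**Figure D2:**
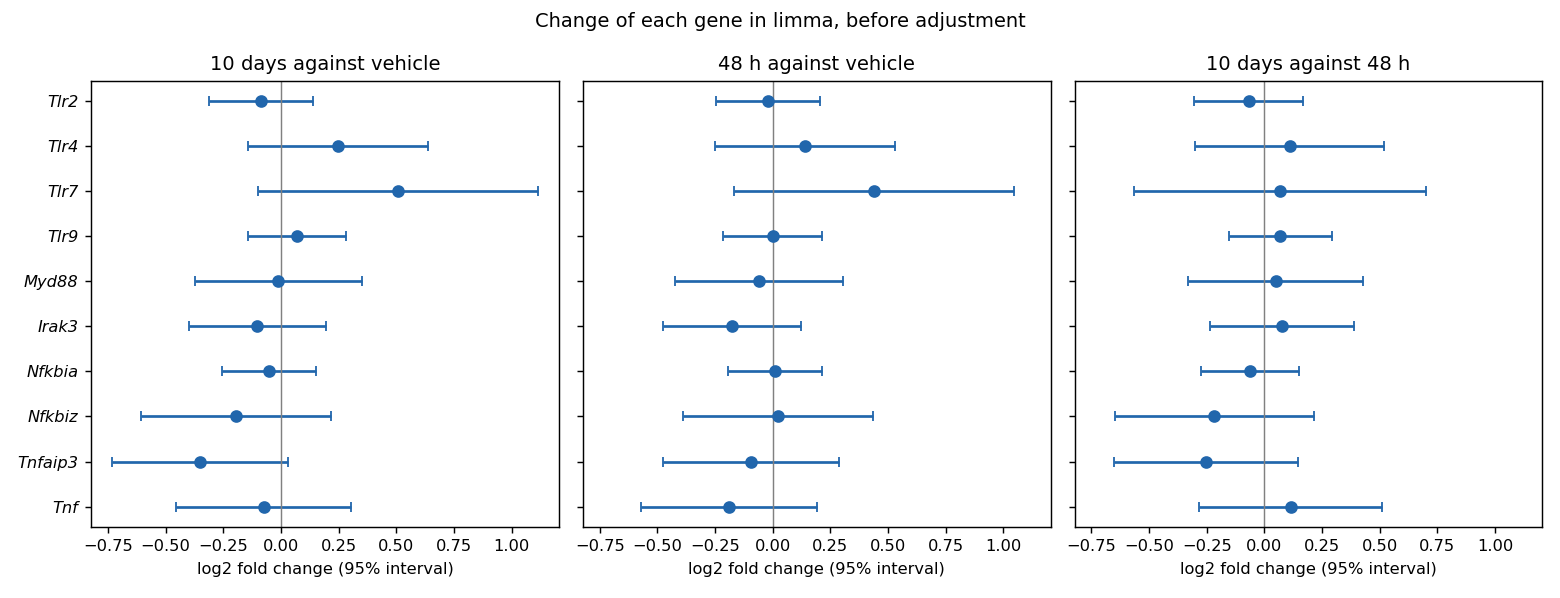
Log2 fold change of each of the 10 genes with its 95% interval before adjustment, for 10 days against vehicle, 48 h against vehicle and 10 days against 48 h. Every interval crosses 0, and the points farthest from it on either side are Tlr7 at 0.51 and Tnfaip3 at -0.35, both for 10 days against vehicle, with Tlr7 at 0.44 for 48 h against vehicle.

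Between the treated times the differences were small against their errors. Tnfaip3 had -0.25 ± 0.19 (SE) and Nfkbiz -0.22 ± 0.20 at 10 days against 48 h, and the other 8 genes lay between -0.07 and 0.11. For each gene the order of the 3 group means separates no neighbours beyond their spread.

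Because the groups fill the slides unevenly, each difference from vehicle was also fitted with the slide as a block and within each slide, where a group can be down to 1 array. With the block, the 10 day differences of Tnfaip3 and Nfkbiz were the largest negative ones, and these 2 of 10 members were at an unadjusted p under 0.05 in limma (3.97% of all genes in that fit), with an adjusted p of 1. For the genes whose slide values are not given above, the 10 day differences in the blocked fit, on slide 1 alone and on slide 2 alone were -0.17, -0.02 and -0.27 for Tlr2, 0.11, 0.25 and 0.04 for Tlr9, 0.009, -0.43 and 0.21 for Myd88, and -0.14, -0.46 and -0.06 for Irak3. For Nfkbia they were -0.085, 0.085 and -0.19 and for Tnf -0.18, 0.088 and -0.17, so that both were higher than vehicle on the first slide and lower on the second. At 48 h the blocked differences of the 10 genes ran from -0.35 for Tnf to 0.21 for Tlr7, with -0.31 for both Nfkbiz and Tnfaip3, and Tnf had 0.11 within slide 1 but -0.91 within slide 2, where the 48 h group is the single replicate 5.

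For the 5 genes with more than 1 probe, the other probes were compared as a check of the readout. The pair of Tnf probes varied together over the 16 tumours, with r = 0.94. The 3 Irak3 probes correlated at 0.56 to 0.68 and the 3 Nfkbiz probes at 0.58 to 0.80. One further Irak3 probe had differences of the opposite sign, 0.07 ± 0.22 (SE) at 10 days and 0.16 ± 0.22 at 48 h, and the other had -0.09 ± 0.21 and -0.13 ± 0.21, while the mean of all 3 had -0.04 and -0.05. For Tlr7, the second probe correlated with the first at 0.77 and gave differences of 0.22 ± 0.22 (SE) at 10 days and 0.46 ± 0.22 at 48 h, while the third correlated with it at 0.51 and gave 0.07 ± 0.21 and -0.18 ± 0.21. In the case of Tlr4 the third probe, at chr4:66591199-66591258 and so far downstream of the others, correlated with the first at -0.33 and with the second at -0.61, and the other two gave -0.07 ± 0.16 and -0.14 ± 0.18 at 10 days where the first gave 0.25 ± 0.18. The direction of Tlr4 at 10 days therefore differs between its probes. The other two Nfkbiz probes had 10 day differences of -0.37 ± 0.31 and -0.55 ± 0.43 (SE), and 48 h differences of -0.14 ± 0.31 and -0.57 ± 0.43 where the first had 0.02 ± 0.19.

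**Figure D3:**
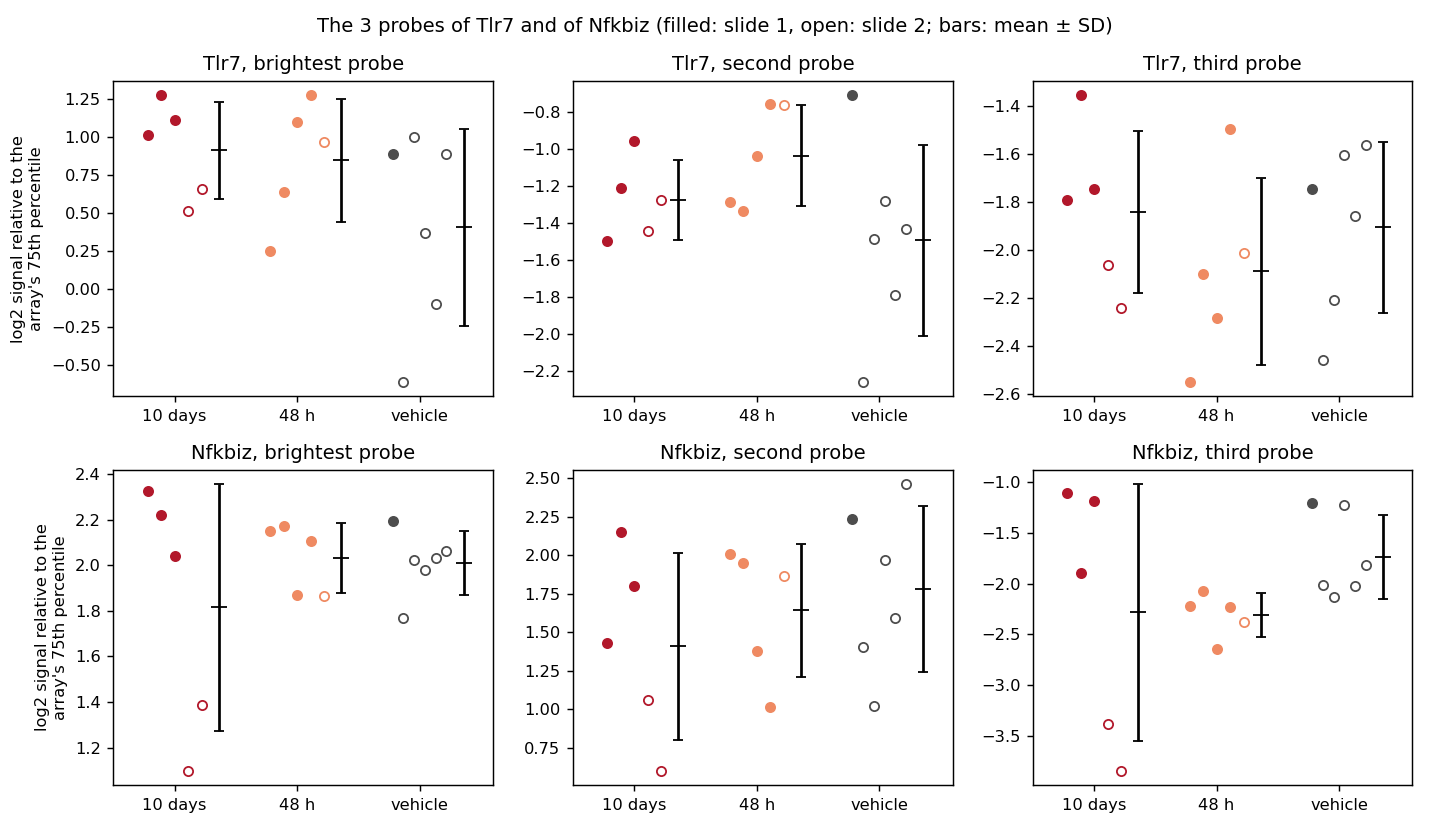
Level on each of the 16 arrays read by each of the 3 probes of Tlr7 and of Nfkbiz, as log2 signal relative to the array's 75th percentile, in the 10 day, 48 h and vehicle groups, with the mean ± SD as a bar and filled points for slide 1. The 2 slide 2 tumours of 10 days are the lowest of the 10 day group with all 3 Nfkbiz probes, whereas the vehicle tumours with low Tlr7 differ in part between probes.

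Tlr2, Nfkbia and Tnfaip3 varied together over the 16 tumours taken as a whole. Within vehicle, Tnfaip3 did not clearly rise with Tlr2. It was 2.84 in vehicle replicate 3, the lowest of that group in Tlr2, and 2.72 in replicate 5, the highest. Over the 16 arrays Tlr2 correlated with Tnfaip3 at r = 0.81 (rho = 0.64) and with Nfkbia at r = 0.79 (rho = 0.83), and Nfkbia with Tnfaip3 at r = 0.69 (rho = 0.59). These 3 values are among the 5 of 45 pairs of members at 0.65 or more, and they remained at 0.61 to 0.68 when the 2 arrays farthest from the median were left out, at 0.66 to 0.89 within slide 1 and at 0.68 to 0.82 within slide 2. The other pairs at that level, Nfkbiz with Tnfaip3 (0.73) and with Tlr2 (0.67), rested on the 2 low 10 day tumours of slide 2: without the 2 farthest arrays they were 0.11 and 0.21, and within slide 1 they were 0.25 and 0.08. Irak3 correlated with Tlr2 at -0.16, with Nfkbia at -0.34 and with Tnfaip3 at -0.24. Tlr4 ran the other way from Tnfaip3 (r = -0.56), as did Irak3 from Tnf (r = -0.50). Myd88 stood apart from Tlr2 (r = -0.01), and Tlr7 correlated with Tlr9 at 0.39. The arrays share their slides and their scaling, so these correlations are given as a description.

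**Figure D4:**
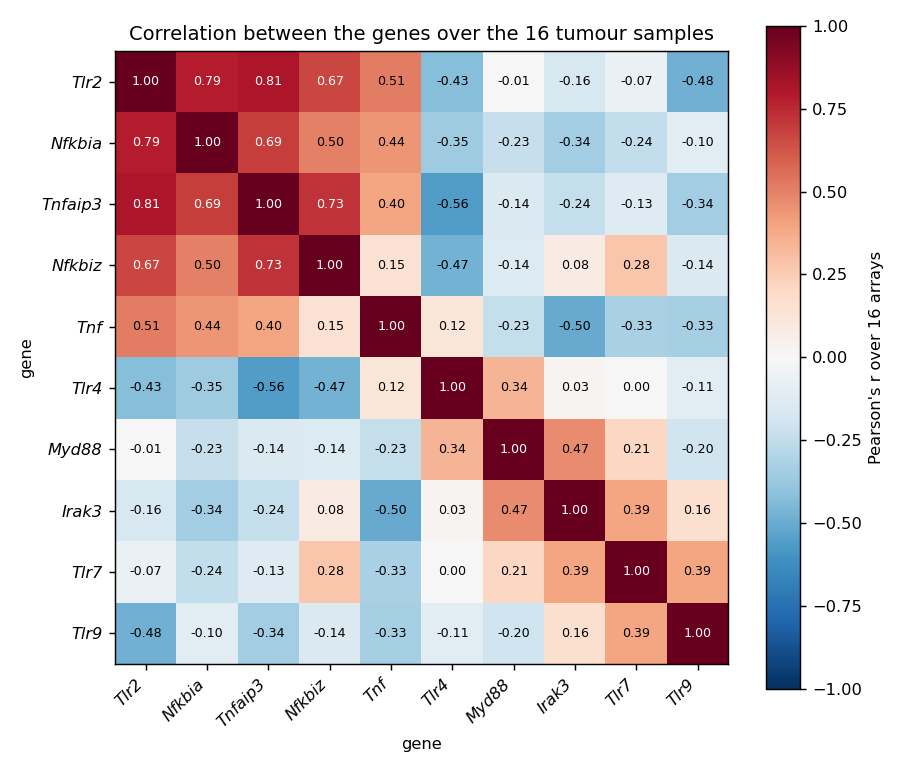
Pearson's r between each pair of the 10 genes over the 16 tumours, with the value in each cell. The pairs among Tlr2, Nfkbia and Tnfaip3 lie at 0.69 to 0.81, Nfkbiz with Tnfaip3 is at 0.73, and Tlr4 is negative against each of them.

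**Figure D5:**
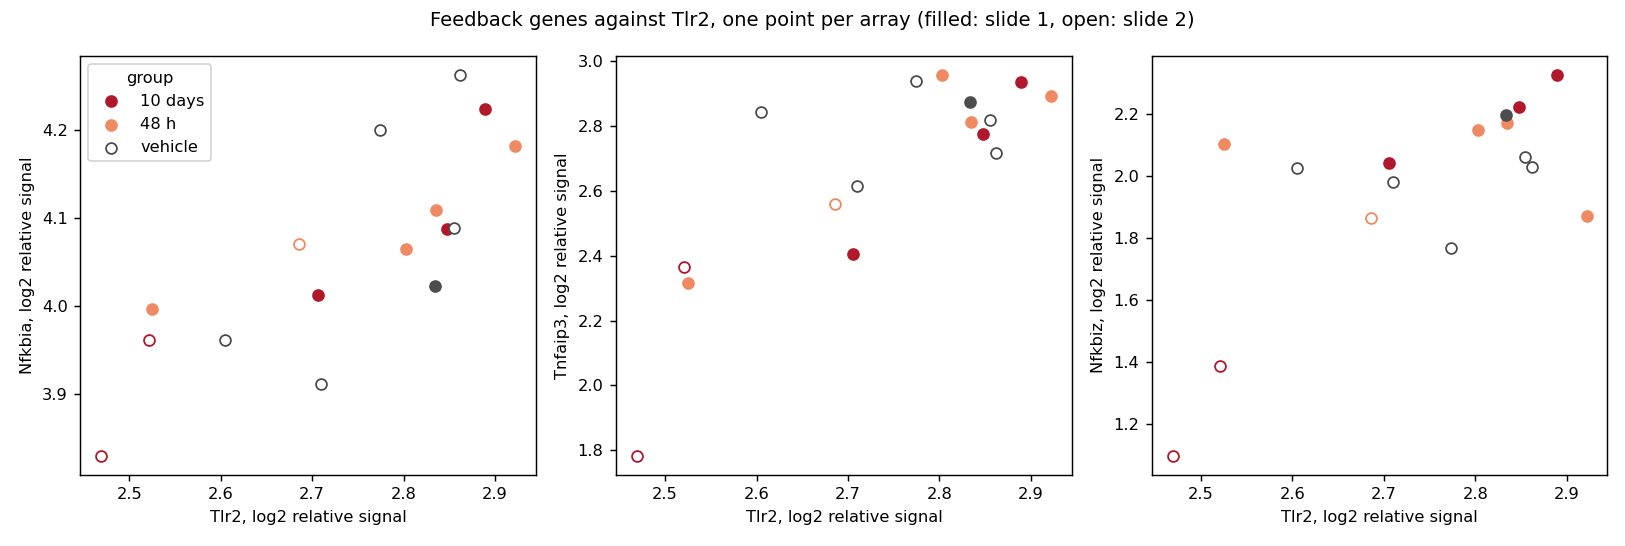
Levels of Nfkbia, Tnfaip3 and Nfkbiz against that of Tlr2, each as log2 signal relative to the array's 75th percentile, with 1 point per tumour, coloured by group and filled for slide 1. Over all points Nfkbia and Tnfaip3 rise with Tlr2, but the vehicle points alone show no clear rise for Tnfaip3. For Nfkbiz the rise comes from the 2 low 10 day tumours at 1.099 and 1.39.

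Among the 30587 other genes tested, those most like each member over the 16 arrays were ranked by Pearson's r, and the highest 3 are named. For Tnfaip3 they were Cd83, a surface protein of activated antigen-presenting cells, at 0.94, the ERK phosphatase gene Dusp5 at 0.93 and Ccrl2, a chemerin-binding receptor, at 0.92, and each stayed at 0.77 or more without the 2 farthest arrays. For Nfkbia the closest was Cxcl1, a neutrophil-attracting chemokine, at 0.88, followed by Gm30270 and BC061237. Tlr2 was closest to Slc25a33 at 0.87, with Tmem213 and Mir22hg next. Tlr7 was closest to B3galnt1, which encodes a glycosyltransferase, and to Maf, a transcription factor of macrophages among other cells, both at 0.89, and then to the kinase gene Map3k11 at 0.86. Tubb2a (0.92), Npc2 (0.91) and Fundc1 (0.91) were the closest to Myd88. Tlr4 ran closest to Wtip (0.87), Sphk2 and Cndp2, and Tlr9 to Iqcg (0.86), Ndp and Zfp169. Tnf had Snhg4 (0.90), Gm30732 and Gm34182. Irak3 had a transcript without a gene name (0.81), Stom (0.81) and Gm4787. The genes closest to Nfkbiz, which were Ttll8 (0.92), 3110023J12Rik (0.92) and Zfp397 (0.89), stood at 0.62, 0.48 and 0.38 without the 2 farthest arrays. With so many genes searched over 16 arrays, high values occur in any ranking of this kind.

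The rest of the pathway was read from lists of its parts. No gene of these lists passed the adjusted threshold in any comparison, and the genes with values here are those at an unadjusted p under 0.05 in limma, each with an adjusted p of 1. Of 22 inflammatory NF-kB target genes tested out of 24, 18 were lower and 4 higher at 10 days than in vehicle (52% of all genes were lower), with a median log2 difference of -0.18 against -0.01 over all genes. This differed between the slides. On slide 1 the mean over the 22 was 1.27, 0.93 and 0.91 in the 10 day tumours, against 1.05 in the 1 vehicle tumour. On slide 2 it was 0.67 and 0.70 at 10 days, against 0.97 to 1.29 in vehicle. At unadjusted p under 0.05, 4 of the 22 were lower, against 1.78% of all genes, and 0 higher, against 1.76%. The 4 were Il12b, the p40 chain of IL-12 and IL-23 (-0.83 ± 0.18, SE), Il23a, the other chain of IL-23 (-0.90 ± 0.41), the prostaglandin synthase gene Ptgs2 (-0.54 ± 0.16) and the chemokine gene Ccl4 (-0.40 ± 0.19). At 48 h 17 of the 22 were lower (53.2% of all genes), with a median of -0.12, and 1, the adaptor gene Traf1, was at p under 0.05 (-0.32 ± 0.15, SE; 1.69% of all genes lower). Il12b was also lower at 10 days than at 48 h by the unadjusted test (-0.62 ± 0.19). Csf2 and Ccl20 were too dim to test.

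Of 27 other negative feedback genes, 18 were lower and 9 higher at 10 days (52% of all genes were lower), with a median of -0.04, and 2 were lower at unadjusted p under 0.05 (1.78% of all genes). Tnip3, which encodes a partner of A20, had -0.45 ± 0.16 (SE) and the MAP kinase phosphatase gene Dusp1 -0.29 ± 0.13. At 48 h 11 were lower and 16 higher (46.8% of all genes were higher), with a median of 0.02. Bcl3, a nuclear IκB protein, had -0.27 ± 0.12 and Tollip, which restrains toll-like receptor signalling, 0.27 ± 0.12, so that 1 of 27 was lower at unadjusted p under 0.05 (1.69% of all genes) and 1 higher (0.87%). The Tollip values at 10 days lay wholly below those at 48 h, at 1.85 ± 0.09 against 2.10 ± 0.12 (SD, n = 5 each), which makes 1 of 27 genes of the list (0.141% of all genes lay wholly lower). Its difference, -0.25 ± 0.12 (SE), was not at an unadjusted p under 0.05.

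The upstream parts of the pathway were counted in the same way. Among 15 other toll-like receptors and co-receptors 8 were higher at 10 days (48% of all genes; median 0.00) and 11 at 48 h (46.8% of all genes; median 0.10). The 1 of 15 at unadjusted p under 0.05 was Tlr3, the receptor for double-stranded RNA, with 0.28 ± 0.13 (SE) at 10 days (1.76% of all genes higher), though it had -0.19 within slide 1. Of 20 adaptors and kinases 16 were higher at 10 days (48% of all genes; median 0.04), 1 of them at unadjusted p under 0.05 (1.76%), which was Map3k8, the kinase TPL2 that links NF-kB activation to ERK, at 0.49 ± 0.22, and 13 were higher at 48 h (46.8% of all genes; median 0.02). The NF-kB subunit genes were lower in 4 of 5 at each time (52% of all genes at 10 days and 53.2% at 48 h). Their medians were -0.04 at 10 days and -0.10 at 48 h. In the TNF receptor list Traf2, an adaptor of TNF receptors, had -0.37 ± 0.13 at 10 days and was the 1 of 6 at unadjusted p under 0.05 (1.78% of all genes lower). Itgam and Itgb2, which encode the CD11b integrin that ADH-503 binds, had adjusted p = 1 in each comparison.

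Markers of cell types were read over the same tumours. All 10 granulocyte markers were lower at 10 days than in vehicle (52% of all genes), 3 of them at unadjusted p under 0.05 (1.78% of all genes), and the mean over the list was -0.81 ± 0.56 at 10 days and -0.32 ± 0.64 at 48 h (SD, n = 5 each), against 0.02 ± 0.51 in vehicle (SD, n = 6), with ranges of -1.56 to -0.01, -0.87 to 0.68 and -0.76 to 0.70. All 8 ductal and tumour epithelium markers were lower at 10 days than in vehicle (52% of all genes). Their mean was -0.004 ± 0.82 at 10 days and 0.58 ± 1.04 at 48 h, against 0.52 ± 0.73 in vehicle. This differed between the slides. On slide 1 the ductal mean was 0.97, -0.18 and 0.71 in the 10 day tumours, against 0.41 in the 1 vehicle tumour. On slide 2 it was -0.61 and -0.92 at 10 days, against -0.08 to 1.86 in vehicle. The means over 11 macrophage and monocyte markers were 3.27 ± 0.06 at 10 days and 3.32 ± 0.08 at 48 h, against 3.23 ± 0.10 in vehicle. Of these markers 8 of 11 were higher than vehicle at 10 days (48% of all genes) and 10 of 11 at 48 h (46.8%). At 48 h 1 of them was higher at unadjusted p under 0.05 (0.87% of all genes). Acinar markers were higher at 48 h than in vehicle in 9 of 9 (46.8% of all genes), 5 at unadjusted p under 0.05 (0.87%) and 3 without overlap between the groups (0.0719%), with a median log2 difference of 0.89. At 10 days against 48 h, 9 of 9 were lower at unadjusted p under 0.05 (1.16% of all genes), with a median of -1.15. At 10 days against vehicle 7 of 9 were lower (52% of all genes), with a median of -0.15. The acinar mean was 1.81 ± 1.18 at 10 days and 3.05 ± 0.31 at 48 h (SD, n = 5 each). In vehicle it was 2.03 ± 0.74 (SD, n = 6). The 10 day tumours were split. Replicates 1, 4 and 5 had acinar means of 1.038, 0.765 and 1.096, below all 48 h tumours. Replicates 2 and 3 had 2.788 and 3.372, inside the 48 h range of 2.57 to 3.395. Erythroid markers were lower than vehicle in 6 of 6 at 10 days (52% of all genes) and at 48 h (53.2%). At each time 4 were at unadjusted p under 0.05, against 1.78% of all genes at 10 days and 1.69% at 48 h. The medians were -1.71 at 10 days and -1.85 at 48 h. Their mean was -3.35 ± 0.88 at 10 days and -3.26 ± 1.11 at 48 h (SD, n = 5 each). In vehicle it was -1.65 ± 1.46 (SD, n = 6). The ranges overlapped, and the 1 vehicle array of slide 1 had -3.07. Of mast cell markers 6 of 6 were lower at 10 days than in vehicle (52% of all genes), 1 at unadjusted p under 0.05 (1.78%), with a median of -0.39. Their mean was -1.89 ± 0.58 at 10 days (SD, n = 5) and -1.39 ± 0.75 in vehicle (SD, n = 6), with overlapping ranges. No marker passed the adjusted threshold. Each member was correlated with each marker mean over the 16 arrays, and the strongest values of either sign are named. Brackets give r without the 2 arrays farthest from the median of the marker mean. Tnfaip3 had r = 0.65 (0.56) with the ductal mean and 0.52 (0.58) with the granulocyte mean. With the ductal mean Tlr2 had 0.58 (0.33), Tlr4 -0.57 (-0.29) and Tlr9 -0.54 (-0.43). Tlr7 had 0.56 (0.33) with the B cell mean and 0.54 (0.28) with the macrophage mean. Myd88 had 0.73 (0.60) and Tlr4 0.55 (0.30) with the dendritic cell mean. Tnf had -0.71 (-0.49) with the B cell mean. These values were picked from many. The part of these cell types in the members' values and in those of the target genes was not tested.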

How the data were processed

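Tumour RNA of 16 samples was measured on 1-colour arrays. The submitters' processing notes name Agilent Feature Extraction 11.5.1.1 for reading the images. The deposited scanner files give each spot's processed signal as a background-subtracted intensity, per the file headers, and place the probes on mm9. A second deposited table holds log2 values of the same arrays, whose 16 sorted columns differ by at most 0.0043, as after quantile normalization. No column was left without a sample.

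From the intensity files, control spots and outlier spots were left out, spots of a probe averaged, log2 taken and each array's 75th percentile subtracted. Each gene was represented by its probe with the highest mean. Names came from RefSeq genes of GRCm38.p6: an accession named 32994 probes, a symbol or synonym 10733, and 12878 probes kept the name in the file. Group differences came from limma 3.58.1 in R 4.3.3 (lmFit on 3 groups, robust eBayes, Benjamini-Hochberg over 30588 genes, 2-sided, threshold 0.05). The fit was also run on simulated data, with changes larger than any difference of the members and without a slide effect. That run does not show how well differences as small as theirs would be found. The number of arrays limits the precision. Replicate numbers follow the order of the samples and pair nothing.

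The members, lists and tests were chosen with earlier results of these data known. Named genes are the members, Itgam and Itgb2, the 3 genes closest to each member and, of each pathway list, up to 4 genes with the smallest p; of the latter, values are printed for those at an unadjusted p under 0.05. Alternatives were another background correction, quantile normalization, the deposited log2 table, other filters on dim probes, the mean of all probes, the slide as a block or alone, an intensity trend, only the groups compared, and leaving out arrays.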

Additional observations from a re-analysis of the deposited data

How the results depend on the processing

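None of the 30 differences of the members (10 genes, 3 comparisons) passed the adjusted threshold under any alternative, and the lowest adjusted p of a member was 0.429. Of 360 values under other settings than leaving out 1 array, 322 kept their sign and 38 did not, 23 of the latter within a single slide. The number of arrays per slide and the spread between tumours limit what differences of this size can show, and each slide holds a group with 1 array only, assumed to vary like the others. The count of all genes past the adjusted threshold, 0 in each comparison (783 genes at 48 h, 1081 at 10 days and 1062 between the times were at an unadjusted p under 0.05 in limma), was 1 at 48 h and 1 at 10 days with no filter on dim probes, 3 between the times with only those groups fitted, and 0 to 1 in each comparison when 1 array was left out. The causes were not tested.

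Signs that turned, given as log2 differences, were these. At 48 h against vehicle within slide 1, Tlr7 had -0.07, Tlr9 0.16, Nfkbiz -0.12 and Tnf 0.11. Within slide 2, Tlr4 had -0.35, Tlr9 0.06, Myd88 0.14, Irak3 0.11, Nfkbia -0.014 and Nfkbiz -0.11. With the slide as a block, Tlr9 had 0.063, Nfkbia -0.038 and Nfkbiz -0.31. With normexp, Tlr9 had 0.029 and Nfkbia -0.024. With quantile normalization and with the deposited table, Nfkbia had -0.020 and -0.018, and Nfkbiz -0.004 in both. With the mean of all probes, Nfkbiz had -0.23 and Tollip -0.018, and without the pair that shares an ID number Tnf had 0.003. At 10 days against vehicle within slide 1, Tlr4 had -0.21, Nfkbia 0.085, Tnf 0.088 and Tlr3 -0.19. Myd88 had 0.21 within slide 2 and 0.009 with the slide as a block. At 10 days against 48 h within slide 1, Tlr2 had 0.043, Tlr4 -0.26, Myd88 -0.020, Nfkbia 0.020, Nfkbiz 0.12 and Tnf -0.016. Within slide 2, Tlr7 had -0.38, Tlr9 -0.025 and Irak3 -0.17. With the mean of all probes Tlr4 had -0.022, and without the pair that shares an ID number Tlr4 had -0.023 and Tnf -0.060.

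Leaving out 1 array turned the sign of 11 of the 30 differences. The ranges were -0.061 to 0.038 for Tlr2, -0.055 to 0.057 for Tlr9, -0.15 to 0.003 for Myd88, -0.022 to 0.048 for Nfkbia, -0.027 to 0.063 for Nfkbiz and -0.16 to 0.003 for Tnfaip3 at 48 h against vehicle. They were -0.10 to 0.13 for Myd88 at 10 days against vehicle. Between 10 days and 48 h they were -0.023 to 0.25 for Tlr4, -0.081 to 0.17 for Tlr7, -0.035 to 0.19 for Myd88 and -0.06 to 0.23 for Tnf. The 10 day differences from vehicle of Tlr7 and Tnfaip3 ran from 0.30 to 0.63 and from -0.47 to -0.18. No paired analysis was possible because the replicate numbers only name the arrays in order and pair no samples.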
